A study of Danio rerio with 3 samples.

Results

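Floor plate cells were taken from droplet single-cell RNA libraries of the zebrafish hindbrain at 16 and 24 hours post-fertilisation (hpf). A cell was a member when it held at least 2 unique molecular identifiers (UMIs, each counting 1 captured mRNA molecule) of *shha* and *shhb* summed, and at least 1 UMI of *foxa* or *foxa2*. The rule selected 83 of 5497 cells, from a series of 9026 cells over 3 stages. There were 46 members among 2929 cells at 16 hpf (1.57%, exact binomial 95% interval 1.15 to 2.09%) and 37 among 2568 cells at 24 hpf (1.44%, 1.02 to 1.98%). Embryos were wild type of the LondonAB strain, and each stage was a single library made from 40 pooled dissected hindbrains with their surrounding tissue. The 16 hpf embryos were grown at 25 °C and the 24 hpf embryos at 28.5 °C, so stage, temperature and library cannot be told apart. The dissection took in tissue next to the neural tube, and pharyngeal endoderm and notochord are also known to transcribe hedgehog and *foxa* genes.

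The floor plate is the strip of neuroepithelium along the ventral midline of the neural tube. It secretes the morphogen Sonic hedgehog, which patterns the cells lateral to it, and guidance proteins of the netrin and slit families, which attract or repel axons that approach or cross the midline. In zebrafish it is also a ciliated tissue: its cells bear motile cilia that project into the central canal, and their assembly depends on the transcription factor Foxj1.

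Each member set was compared within its own library. The comparison cells were hindbrain progenitors, defined by at least 5 UMIs of *sox3*, a transcription factor of neural progenitors, and 0 UMIs of *shha* and *shhb* (1732 cells at 16 hpf and 1537 at 24 hpf). A second set, called ventral neighbours, held at least 2 UMIs of *nkx2.2a*, *nkx2.2b* and *nkx2.9* summed and no *shha* or *shhb* (92 and 93 cells), and 2 of the 92 carried the pancreatic hormone gene *ins*. Cells with 0 UMIs of 3 *sox* genes, *elavl3*, *shha* and *shhb* (229 and 204 cells) are called non-neural cells. Their shares are given beside the others (median 8080 and 7790.5 UMIs per cell). They hold RNA of their own, such as head mesenchyme markers at 1144 CPM at 16 hpf (52.4 CPM in comparison cells). A share in them is therefore no measure of free RNA alone. Members held a median of 7696.5 UMIs per cell at 16 hpf (lowest 2175, highest 22104) against 10285.5 in comparison cells, and 7469 (3666 to 24772) against 8036 at 24 hpf. Levels are given as CPM, which divides a gene's UMIs in a whole group of cells by all UMIs of that group and scales the result to 1000000. With 1 library per stage there was no biological replicate and no test between conditions. Intervals in brackets are exact 95% limits. For levels and ratios they cover the counting error of UMIs only. For shares of cells they cover the counting of cells only, and take the cells of 1 library as independent. A gene was counted as higher or lower when its CPM ratio was at least 2 or at most 0.5, among genes whose mean over the compared groups was at least 20 CPM. A gene near 0 in either group passed this minimum only through the other, so that counts of higher and lower genes describe a list and support nothing by themselves. Of 4307 such genes at 16 hpf, 16% were higher in members and 7.22% lower, with a median ratio over all genes of 1.02.

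The values that chose the members are given as a description only. At 16 hpf the sum of *shha* and *shhb* per member was at its lowest 2, had a median of 14 and was at its highest 42 UMIs, and at 24 hpf these values were 2, 9 and 54. *foxa* and *foxa2* together had medians of 6 and 7 UMIs. Members held 84.7% of all *shha* and *shhb* UMIs of the 16 hpf library and 89.98% of those at 24 hpf. Just inside the threshold, 7 members at 16 hpf and 8 at 24 hpf had 2 or 3 *shha* and *shhb* UMIs, and 5 of those 8 were cells with *epcam* described below. Just outside it, 35 and 19 cells had 1 such UMI together with *foxa* or *foxa2*, and 7 and 1 cells had at least 2 but neither *foxa* gene. The level of *foxj1a*, which the rule did not use, was 275 CPM just inside and 131 CPM just outside at 16 hpf, and 112 and 34.4 CPM at 24 hpf, whereas *spon1b* was 15.3 inside and 13.1 CPM outside at 16 hpf and 40.5 and 81.3 CPM at 24 hpf. *sox3* was at 882 CPM in members and 1749 CPM in comparison cells at 16 hpf, where 22 of 46 members had at least 5 *sox3* UMIs and 7 had none. The 16 and 24 hpf libraries shared 8 cell barcodes, 1 of them of a member, and 1 of 11 barcodes shared by the 24 and 44 hpf libraries was of a member.

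Floor plate genes outside the rule were found in most members at 16 hpf, with *foxj1a* in 38 and *spon1b* in 36 of 46 cells, and in 25 of 37 members at 24 hpf, all of which carried *ntn1b*, although *loxl5b* and *ctgfa* were each found in 22 of those 25. Among those 25 was a cell with 35 *nkx2.9* and 24 *phox2bb* UMIs and a cell with 9 and 20 of these. Neither held a UMI of *spon1b*, *slit1b*, *slit2*, *loxl5b* or *ctgfa*. A further cell held 4 *spon1b* UMIs but none of the others. At 16 hpf several members near the *shha* and *shhb* threshold likewise held no *slit1b*, *slit2* or *loxl5b*. For all these cells the label is uncertain, and they were kept in their groups. The label goes against the data for the remaining 12 of the 37 at 24 hpf. These members at 24 hpf had at least 2 UMIs of the epithelial adhesion gene *epcam* (5 to 28 UMIs per cell). They were deeper, with a median of 13944.5 UMIs, and held 49.97% of the 342189 UMIs of all members. No UMI of *spon1b*, *ntn1b*, *slit1b*, *col9a3*, *clu*, *lmx1bb* or *nkx2.9* was found in any of these 12 cells, and *foxj1a* gave 2 UMIs in total. Not every listed floor plate gene was absent. *ctgfa* was higher in the 12 cells than in comparison cells, with 47 UMIs in 1 cell. Of 9 counted genes listed as secreted by the floor plate, 4 were higher in them, where over all genes 646 of 3981 were. The 12 cells also carried genes of epithelia and of pharyngeal pouch endoderm. *epcam* itself stood at 1123 CPM, and the tight junction gene *cldn7b* at 374 CPM in 10 cells with 0 UMIs in the other 25 members, at least 21.4-fold. The actin regulator *cfl1l* was 75.8-fold (25.6 to 370.1) higher than in the other 25 members. The pouch transcription factor *pax1b* gave 24 UMIs in 7 cells, *pax9* gave 13 in 7 cells and the growth factor *fgf20b* gave 31 in 9 cells, and all were at 0 in the other members. The lists of endoderm and epidermis markers both hold *epcam*, which set these cells apart, and are given without it. The other 12 endoderm markers summed to 503 CPM in the 12 cells (lowest, median and highest cell 199.8, 503 and 749.7 CPM), to 269 CPM in the other 25, where 41 of the 46 UMIs were of *foxa1*, and to 8.30 CPM in comparison cells, although *sox17*, *sox32* and *cdx4* were at 0 in the 12 cells. The other 10 epidermis markers summed to 2544 CPM in the 12 cells, 2366 CPM in the other 25 and 4563 CPM in comparison cells. The median cell had 2533, 2404 and 406 CPM in the same order, and the highest comparison cell 323336 CPM. The comparison sum thus came from few cells, and the typical comparison cell was below the members. In the other 25 cells most of the 405 UMIs of this list were of *krt8*, and *krt4* gave at most 4 UMIs in a cell. The basal epidermis gene *tp63* gave 38 UMIs in 9 of the 12 cells and 2 in the other 25. A list of 12 floor plate markers, the rule genes among them, summed to 901 and 11887 CPM, and to 486 CPM in non-neural cells.

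At 16 hpf 1 member had 34 *epcam* UMIs and 1 had 18 UMIs of the notochord transcription factor gene *ta*. The other 44 members had no *ta* because cells with it were set apart. In them the notochord markers *col9a1a*, *cmn*, *epyc* and *matn3b* were also at 0, while *noto* and *col8a1a* were detected. The list of 10 notochord markers, which shares collagen genes with the floor plate, summed to 999 CPM against 114 CPM in comparison cells. At 24 hpf it summed to 2915 CPM in low-*epcam* members, with the same genes and *noto* at 0, and to 81.9 CPM in comparison cells. The members with fewer than 2 *epcam* UMIs and no *ta* UMI, 44 cells at 16 hpf and 25 at 24 hpf, are called low-*epcam* members. This division was made after the values were seen, and the 24 hpf results are given for the low-*epcam* members unless all 37 are named. Of 4044 genes compared at 24 hpf with all 37 members, 16.2% were higher and 9.22% lower. With the 25 low-*epcam* members 24.1% of 3990 genes were higher and 19.3% lower, so a list has to be read against a wider background there. Among comparison cells, 9.58% at 16 hpf and 6.05% at 24 hpf had at least 2 *epcam* UMIs themselves.

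**Figure D1:**
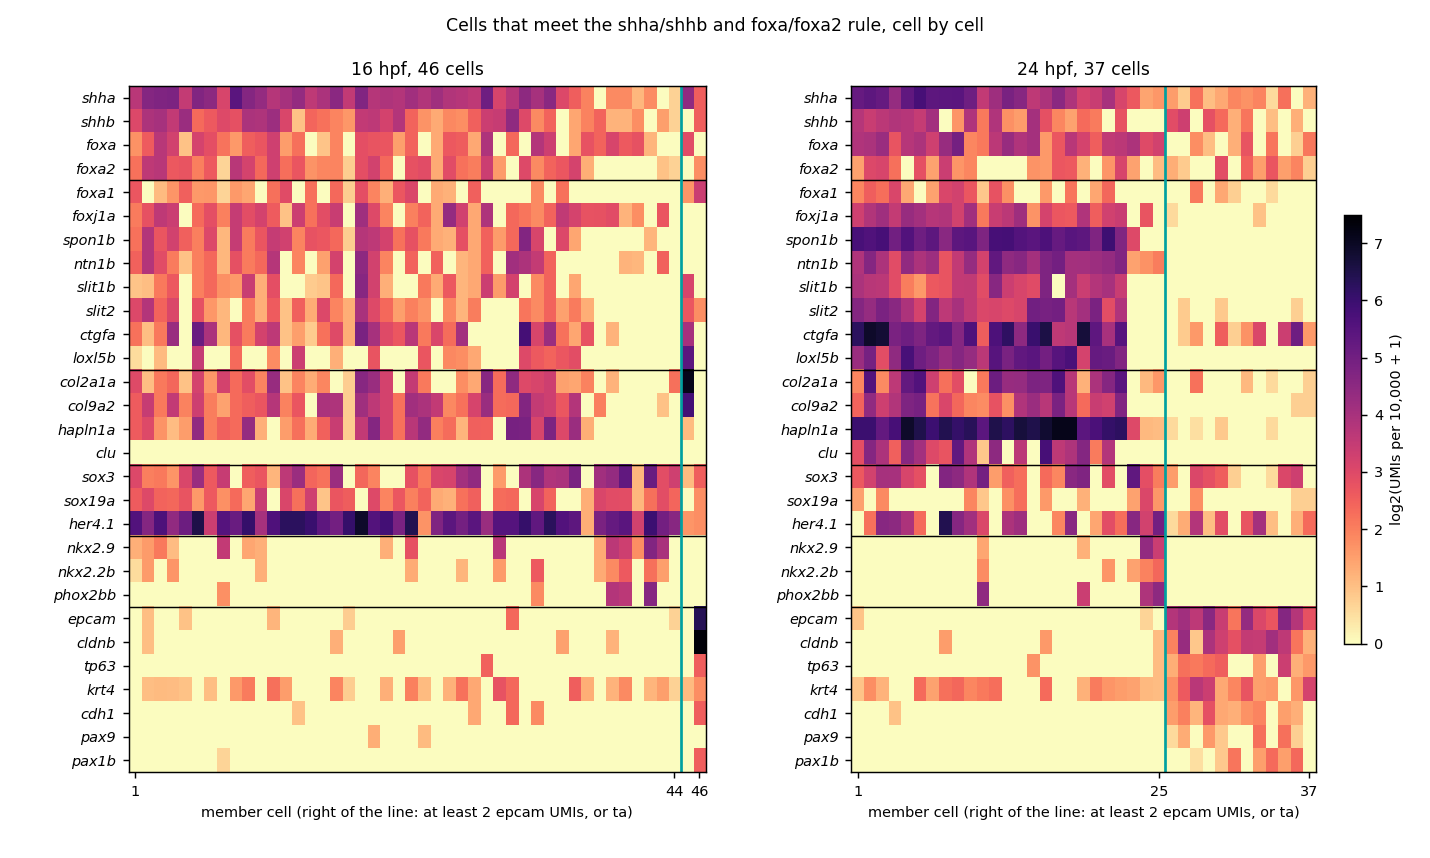
Each column is 1 member cell (46 at 16 hpf, 37 at 24 hpf) and each row a gene, coloured by log2 of UMIs per 10000 UMIs of that cell plus 1, with a cyan line setting apart the cells with at least 2 *epcam* UMIs or with *ta*. The 12 cells right of the line at 24 hpf carry *epcam* and no *spon1b*, whereas *spon1b*, *ntn1b* and *hapln1a* fill most columns to its left.

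Among transcription factors, the list for the floor plate held 12 measured genes besides the rule genes, which summed to 1449 CPM in members and 70.303 CPM in comparison cells at 16 hpf and to 1922 and 88.4 CPM at 24 hpf. The CPM minimum was reached by 7 at each stage, all of them higher in members, but all 7 at 16 hpf and 6 of the 7 at 24 hpf stood under it in comparison cells and passed through their level in members. The shares of higher genes among all genes were 16% and 24.1%. Among the 7, 3 are the *nkx2* genes that defined the ventral neighbours, so their levels are no independent measure. *foxj1a*, the regulator of motile ciliogenesis, gave a lowest, median and highest value of 0, 4 and 15 UMIs per member at 16 hpf, with a UMI in 38 of 46 cells. Its level was 479 (412 to 555) CPM against 12.9 CPM in comparison cells, a ratio of 37.1 (30.4 to 45.3). At 24 hpf it stood at 899.6 (763 to 1053) CPM with a UMI in 23 of 25 cells, a ratio of 75.5 (60.5 to 94.2), and it was 5.01 (3.85 to 6.55) and 9.63 (7.33 to 12.7) times the level of ventral neighbours. After thinning every cell to 2000 UMIs, *foxj1a* was detected in 26 of 44 low-*epcam* members at 16 hpf, 59.1% (43.2 to 73.7), against 2.25% of comparison cells and 1.75% of non-neural cells, and in 20 of 25, 80.0% (59.3 to 93.2), against 2.15% and 0.490% at 24 hpf. The unthinned shares in these members were 86.4% and 92.0%. Its paralogue *foxj1b* gave 28 UMIs at 16 hpf (79.4-fold, 42.0 to 155) and 1 UMI at 24 hpf.

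*foxa1*, a paralogue of the *foxa* genes that was no part of the rule, had a ratio of 89.2 (59.9 to 135) at 16 hpf. At 24 hpf it reached 239 CPM in 16 of 25 cells with 0 UMIs in comparison cells, at least 1193-fold higher. The high-*epcam* members carried *foxa1* as well, with 12 UMIs. The LIM homeodomain gene *lmx1bb* was at 222 CPM (28.3-fold, 21.4 to 37.3) and 222 CPM (20.6-fold, 14.1 to 29.5) at the respective stages, and at 10.4 and 1.13 CPM in ventral neighbours. The homeobox gene *arxa* had 14 UMIs in 12 members at 16 hpf and 7 at 24 hpf with none in comparison cells, at least 225-fold and at least 204-fold. *nkx6.1*, a gene of the ventral progenitor domains, was 5.13-fold (3.79 to 6.82) and 3.42-fold (2.28 to 4.96) higher than in comparison cells but stood below the ventral neighbours, at 140.4 against 201 CPM and 169 against 339 CPM.

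Secreted guidance and matrix genes were higher in members at both stages, and by more at 24 hpf. Of the 22 genes listed as secreted by the floor plate, 15 reached the CPM minimum at 16 hpf, of which 13 were higher and 2 lower (median ratio 10.6, summed level 4259 against 2348 CPM). At 24 hpf 13 of 17 were higher and 2 lower, with a median ratio of 26.1 and a summed level 6.21 (5.96 to 6.46) times that of comparison cells. Of the 13 higher genes, 10 at 16 hpf and 9 at 24 hpf stood under the minimum in comparison cells. Among all genes 16% were higher at 16 hpf and 24.1% at 24 hpf, and 7.22% and 19.3% were lower. The 2 lower genes at both stages were *mdka* and *mdkb*, which encode the heparin-binding midkines. *mdka* was at 318 against 1421 CPM at 16 hpf (0.224, 0.185 to 0.268) and 228 against 1636 CPM at 24 hpf (0.139, 0.0990 to 0.190).

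F-spondin 1b, encoded by *spon1b*, is a matrix protein of the ventral midline. Its UMIs per member were at their lowest, median and highest 0, 3 and 13 at 16 hpf and 0, 24 and 59 at 24 hpf, and 36 of 46 and 23 of 25 cells had at least 1. The level was 413 (351 to 483) CPM at 16 hpf and 3335 (3067 to 3621) CPM at 24 hpf, 183 (129 to 266) and 462 (375 to 572) times that of comparison cells. All ventral neighbours together held 13 UMIs at 16 hpf and 59 at 24 hpf. The gene was thus detected in most members and in few comparison or non-neural cells. After thinning to 2000 UMIs, 88.0% (68.8 to 97.5) of low-*epcam* members at 24 hpf had *spon1b* (92.0% unthinned), against 1.43% of comparison cells and 0.980% of non-neural cells. At 16 hpf the shares were 54.5% (38.8 to 69.6) (81.8% unthinned), 0.635% and 1.75%.

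The netrins attract commissural axons towards the midline. *ntn1b* had 0, 1.5 and 13 UMIs as its lowest, median and highest per member at 16 hpf and 1, 10 and 20 at 24 hpf, where every low-*epcam* member carried it. Its ratio to comparison cells was 44.1 (34.1 to 57.1) at 16 hpf and 110.0 (90.7 to 134) at 24 hpf. Its paralogue *ntn1a* was shared with the flanking tissue: it was 2.71-fold (2.08 to 3.47) and 5.08-fold (3.86 to 6.57) above comparison cells, but 0.683 (0.511 to 0.902) and 0.786 (0.590 to 1.03) times the level of ventral neighbours, with the second interval reaching past 1. For *ntn1b* the same 2 ratios to ventral neighbours were 4.32 (3.17 to 5.94) and 6.86 (5.64 to 8.36).

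The slits repel axons that carry Robo receptors. *slit1b* was at 219.8 CPM in 29 of 46 members at 16 hpf and 818 CPM in 21 of 25 at 24 hpf, 200.1-fold (122 to 344) and 339.5-fold (234 to 504) above comparison cells. *slit2* was at 305 and 1384 CPM, 26.4-fold (20.9 to 33.3) and 107-fold (88.3 to 130.3). Ventral neighbours had little of either gene, with 3.46 and 1.13 CPM of *slit1b* and 9.23 and 5.63 CPM of *slit2*. *slit3* showed 20.9-fold and 30.1-fold (22.7 to 39.5) higher levels than in comparison cells. Of 57 guidance ligands and receptors, 7 of 18 were higher and 0 lower at 16 hpf, and 5 of the 7 were netrin or slit ligands. At 24 hpf 9 of 20 were higher, the same 5 ligands among them, and 4 lower. Over all genes 16% were higher and 7.22% lower at 16 hpf, and 24.1% and 19.3% at 24 hpf. The count of lower guidance genes at 24 hpf was thus near that of all genes. The lower ones were the slit receptors *robo1* (0.366, 0.0442 to 1.33) and *robo3* (0.391, 0.0473 to 1.42), with intervals that reach past 1, and the ephrins *efna1b* and *efnb2a* (0.215, 0.0260 to 0.779). The neuropilin *nrp1a* was 7.76-fold (4.76 to 12.1) and 11.6-fold (6.15 to 20.4) higher.

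**Figure D2:**
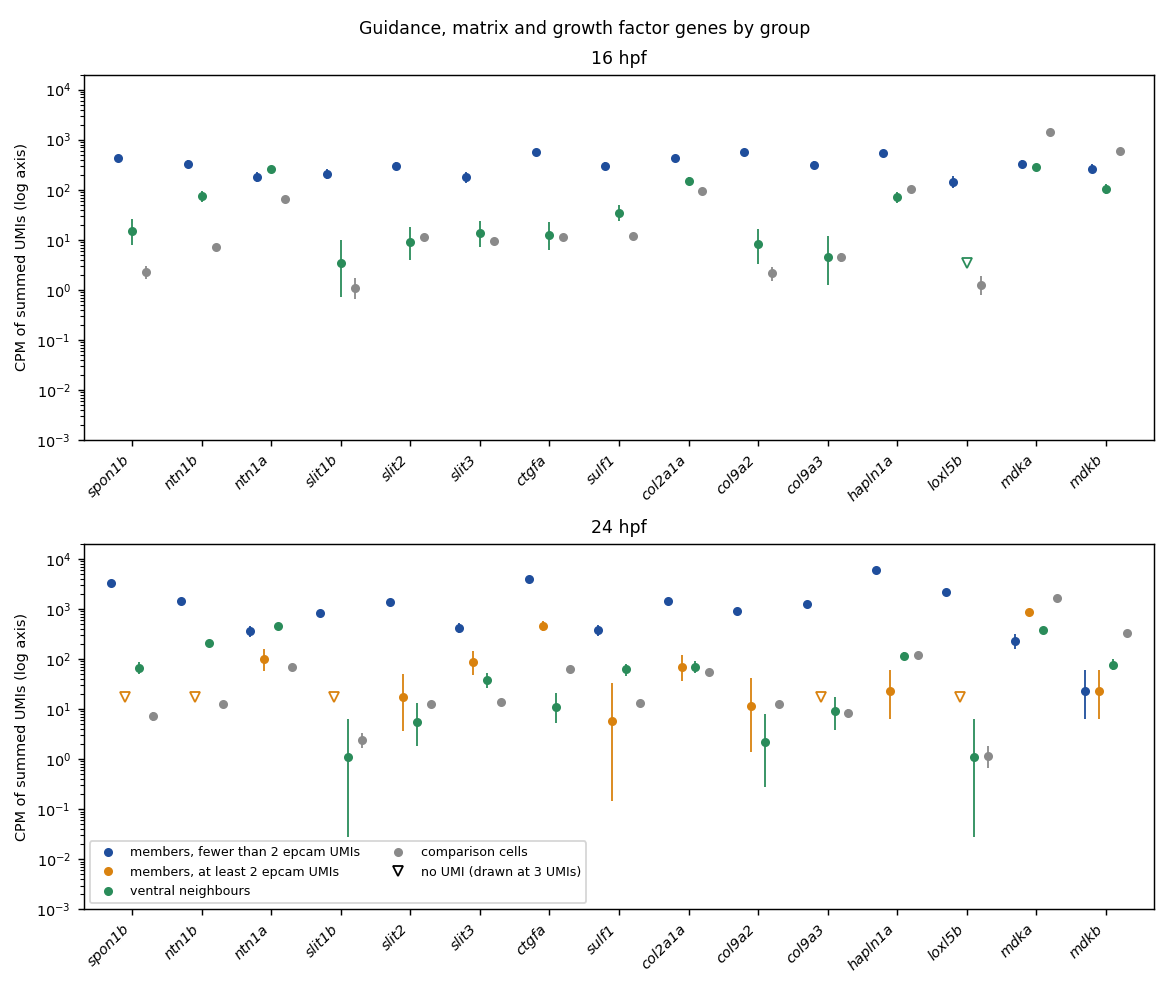
CPM of the named secreted and matrix genes on a log axis at 16 hpf and 24 hpf, as points with exact 95% Poisson intervals, for low-*epcam* members (blue), high-*epcam* members (orange, 24 hpf only), ventral neighbours (green) and comparison cells (grey), with an open triangle at the level of 3 UMIs where a group had none. The blue points for *slit1b*, *slit2*, *ctgfa* and *loxl5b* lie far above the green ones, while those for *ntn1a* lie close to them.

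Matrix-associated proteins were high as well, and more so at 24 hpf. *ctgfa*, a CCN family gene, had 0, 3 and 34 UMIs as lowest, median and highest per member at 16 hpf and 0, 21 and 98 at 24 hpf, and a ratio to comparison cells of 51.9 (42.8 to 63.1) and 64.5 (58.4 to 71.3). In ventral neighbours it was at 12.7 and 11.3 CPM. *cyr61l2*, of the same family, gave 3 UMIs at 16 hpf but 841 CPM in 22 of 25 cells at 24 hpf, 1257 (664 to 2678) times the level of comparison cells. *loxl5b*, a lysyl oxidase-like gene whose family crosslinks collagen, had 0, 15 and 34 UMIs per cell at 24 hpf and stood 1905-fold (1174 to 3306) above comparison cells, at 2167 CPM. At 16 hpf 38 of its 91 UMIs came from the member with *ta*, and the 44 low-*epcam* members held 53. The hyaluronan link protein gene *hapln1a* went from 522 CPM at 16 hpf to 5947 CPM at 24 hpf, 5.10-fold (4.38 to 5.91) and 49.4-fold (45.7 to 53.3) above comparison cells, with 0, 2 and 20 UMIs as lowest, median and highest per cell at 16 hpf and 1, 40 and 80 at 24 hpf. It was the most abundant of the secreted genes named at 24 hpf, although levels of different genes were not corrected for capture. The heparan sulphate sulfatase *sulf1* was 24.7-fold and 27.9-fold higher.

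Collagens of cartilage and notochord type were present at both stages. *col9a2* had 0, 3 and 52 UMIs per member at 16 hpf, the highest of these in the member with *ta*, and 0, 5 and 17 at 24 hpf, with ratios of 319 (227 to 459) and 69.7 (56.0 to 86.5). *col9a1b* was 245-fold (177 to 347) and 73.3-fold (57.4 to 93.6) higher, *col9a3* 80.4-fold and 149.9-fold (119.9 to 188), and *col8a1a* 124-fold and 480.1-fold. *col2a1a*, which encodes type II collagen, was at 744 CPM, 7.92-fold, and 1449 CPM, 26.1-fold (22.6 to 30.2). Its 16 hpf value is over all members, and the member with *ta* held 127 of the UMIs, where no other member held more than 15. The 24 hpf value is over low-*epcam* members, so these *col2a1a* values are not of like groups. The same holds for the other collagen pairs given here. For *col9a2* no 16 hpf member besides the one with *ta* held more than 16 UMIs. Of 91 matrix and adhesion genes, 20 of 36 were higher and 2 lower at 16 hpf (median ratio 2.57), and 21 of 38 were higher and 7 lower at 24 hpf, with a summed level 7.02 (6.78 to 7.26) times that of comparison cells. Over all genes 16% and 24.1% were higher and 7.22% and 19.3% lower at these stages. The counts of lower matrix genes were thus near those of all genes. *sparc*, a collagen-binding matrix protein, was 7.88-fold and 11.6-fold higher, at 485 and 3195 CPM.

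Genes of the motile cilium were higher in members at both stages. Of 67 listed genes 30 reached the CPM minimum at 16 hpf and all 30 were higher, with a median ratio of 79.9. Of these, 26 stood under the minimum in comparison cells and passed only through their level in members, as did 7 of the 10 higher at 24 hpf. Summed over all 67 genes, members had 3745 CPM and comparison cells 261 CPM, a ratio of 14.4 (13.5 to 15.24). At 24 hpf 10 of 12 counted genes were higher and 0 lower in low-*epcam* members and the summed level was 2202 CPM, 10.8 (9.64 to 12.0) times that of comparison cells. In all 37 members 5 of 8 were higher and the summed ratio was 5.70. Among all genes 16% were higher at 16 hpf, and 24.1% in low-*epcam* members and 16.2% in all 37 at 24 hpf. Per cell, the summed level of low-*epcam* members was at its lowest, median and highest 188, 3977 and 9195 CPM at 16 hpf, against 0, 224 and 4219 CPM in comparison cells. At 24 hpf it was 350.1, 2509.7 and 4192 CPM, against 0, 179.6 and 1811 CPM in comparison cells and 0, 119 and 236 CPM in the 12 high-*epcam* members. The median member thus lay near the highest of 1732 comparison cells at 16 hpf and above the highest of 1537 at 24 hpf, while the high-*epcam* members lay within the comparison range.

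Axonemal genes led this group. *enkur*, which encodes the sperm and cilium protein enkurin, was at 175 CPM in 29 of 46 members at 16 hpf, 152-fold (91.6 to 261), and 64.3 CPM at 24 hpf, 107-fold (40.2 to 291). *spag6*, a component of the central pair apparatus, was 321-fold (95.3 to 1689) and 524-fold (63.5 to 24094) higher. *daw1*, which is needed to assemble dynein arms, had ratios of 92.9 (62.9 to 139) and 199.5 (77.7 to 574), and *dnali1*, an axonemal dynein light chain, 161 (74.4 to 385) at 16 hpf with 4 UMIs at 24 hpf. The radial spoke gene *nme5* was 125-fold and 67.2-fold higher. *pih1d3*, a dynein assembly factor, had 42 UMIs at 16 hpf (156-fold) and none at 24 hpf. The tubulin-binding gene *tppp3* was at 162 CPM (140.1-fold, 84.1 to 242) and 105 CPM (50.7-fold, 26.7 to 93.5).

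Some listed cilium genes differed less. On the motile cilium list, *cfap20* was 4.27-fold and 4.28-fold higher and the transcription factor *rfx2* 3.87-fold (2.98 to 4.95) and 2.57-fold (1.32 to 4.53). *ift20* of the intraflagellar transport complex was 3.59-fold (2.59 to 4.86) and 2.54-fold (1.44 to 4.16) higher. All of these reached the CPM minimum in comparison cells, where most counted motile cilium genes stood under it. All 8 counted genes of 36 for ciliogenesis and intraflagellar transport were higher at 16 hpf and all 4 at 24 hpf, of which 5 and 3 were under the minimum in comparison cells, with summed ratios of 3.08 and 2.07. The shares of higher genes among all genes were 16% and 24.1%. Against ventral neighbours, all 30 counted motile cilium genes were higher in low-*epcam* members at 16 hpf and 8 of 12 at 24 hpf, with summed ratios of 7.73 (6.93 to 8.63) and 5.70 (4.91 to 6.62). In the same comparison 592 of 4335 genes were higher at 16 hpf and 872 of 3989 at 24 hpf.

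**Figure D3:**
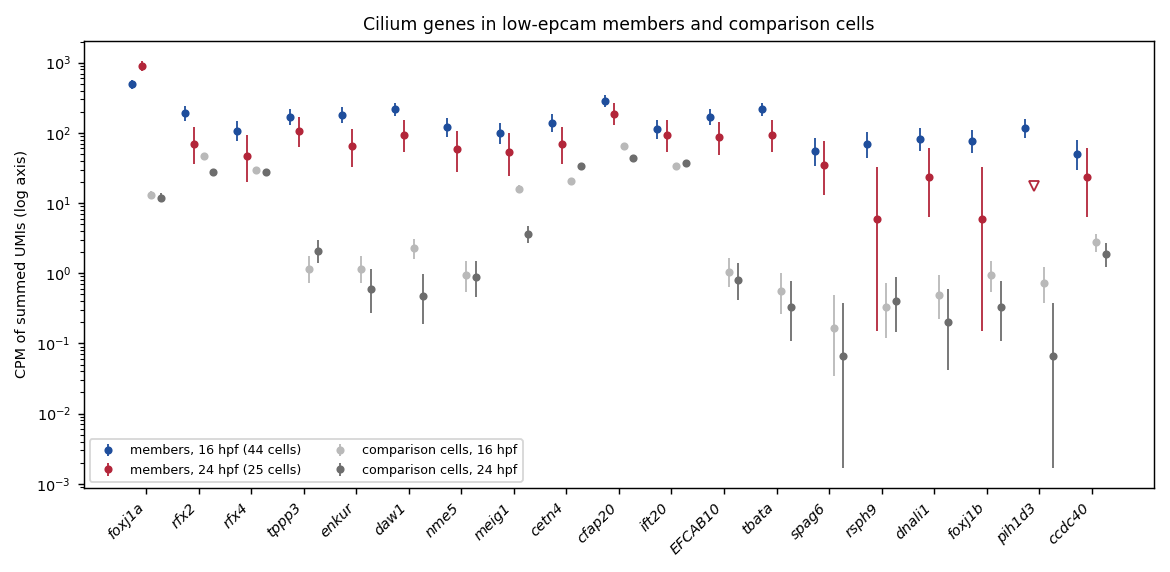
CPM of 17 cilium genes, *EFCAB10* and *tbata* on a log axis in low-*epcam* members (44 cells at 16 hpf, 25 at 24 hpf) and in comparison cells, with exact 95% Poisson intervals and an open triangle at the level of 3 UMIs where a gene had none. Axonemal genes such as *daw1*, *enkur* and *spag6* stand apart from comparison cells by far more than *rfx2*, *cfap20* or *ift20*.

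Other genes with the highest ratios by the naming rule had no place on these lists. *ldlrad2*, which encodes a protein with a low-density lipoprotein receptor domain, was at 403 CPM in 35 of 46 members at 16 hpf, 666-fold (362 to 1363), and at 327 CPM at 24 hpf, 698-fold (318 to 1816). *tbata* was 381-fold (197 to 825) and 279-fold higher, and *lrrc74b* 369.7-fold at 16 hpf. The galectin gene *lgals2a* had ratios of 156 (108 to 229) and 449 (197 to 1196), the carbohydrate sulfotransferase *chst2b* 177 and 829 (299 to 3199), *EFCAB10* 155 at 16 hpf, and the apelin receptor gene *aplnr2* 137 and 1135. *npr3*, the natriuretic peptide clearance receptor, was 148-fold (83.9 to 272) and 484-fold (312 to 782) higher, with no UMI in ventral neighbours at either stage. Further genes ranked among the highest at 24 hpf. *clu*, which encodes the secreted chaperone clusterin, gave no UMI in 46 members at 16 hpf and 179 at 24 hpf (0, 5 and 27 UMIs as lowest, median and highest per cell), 679-fold (439 to 1099) above comparison cells. *vasna*, a membrane protein gene, was at 1034 CPM (182-fold), *lcn15*, a lipocalin, at 356 CPM (1775-fold, 579 to 8845) and the myosin light chain *myl9a* at 309.6 CPM (925-fold).

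Members were chosen for hedgehog ligand transcripts, and the co-receptors through which cells receive the ligand were partly lower in them. Of 14 genes of reception and response, 0 of 8 were higher and 3 lower at 16 hpf, and 1 of 8 was higher and 4 were lower at 24 hpf, with summed ratios of 0.636 (0.549 to 0.733) and 0.384 (0.295 to 0.490). Among all genes 16% were higher and 7.22% lower at 16 hpf, and 24.1% and 19.3% at 24 hpf. The co-receptor *gas1b* was at 63.6 against 286 CPM at 16 hpf (0.223, 0.142 to 0.332) and had 2 UMIs at 24 hpf (0.0305, 0.00369 to 0.110). The co-receptor *boc* was at 63.6 against 170.0 CPM (0.374, 0.239 to 0.557) and 29.2 against 251 CPM (0.116, 0.0378 to 0.272). Not every co-receptor was lower: *cdon* had ratios of 1.44 (1.05 to 1.92) and 1.38 (0.884 to 2.07) to comparison cells and of 4.28 (2.57 to 7.29) and 9.58 (4.69 to 20.5) to ventral neighbours. The transducer *smo* was 1.71 (1.24 to 2.29) and 1.12 (0.592 to 1.92) times the comparison level. *gli1*, a target of the pathway, was at 18.5 CPM (1.03, 0.412 to 2.15) at 16 hpf and gave no UMI at 24 hpf, against 24.2 and 20.3 CPM in ventral neighbours. The feedback inhibitor *hhip* was 1.65-fold and 2.60-fold (1.11 to 5.19). The receptor gene *ptch1* had no UMI in members and under 1 CPM in comparison cells at either stage, so that it could not be compared. *scube2*, which helps to release the lipid-modified ligand, was lower at 16 hpf (15.9 against 68.0 CPM, a ratio of 0.234) and had a ratio of 0.863 (0.371 to 1.71) at 24 hpf.

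Genes of intermediate and dorsal progenitor domains were low. Of 39 such genes 17 of 20 were lower at 16 hpf and 2 were higher, *irx7* (3.95-fold) and *lmx1bb* (median ratio 0.252). At 24 hpf 21 of 23 were lower and only *lmx1bb* higher, with a median ratio of 0.131. Among all genes 7.22% were lower at 16 hpf and 19.3% at 24 hpf. Examples are *pax3a* of the dorsal neural tube (0.134 at 16 hpf), the zinc-finger gene *zic2b* (0.201) and *msx3*, which had a ratio of 0.314 (0.186 to 0.497) at 16 hpf and 1 UMI in all 37 members at 24 hpf against 389 CPM in comparison cells. *zic1* had no UMI in any member at 24 hpf, and *dbx1a* of the intermediate domain had a ratio of 0.0193 (0.000489 to 0.108) in all 37. The comparison cells span all dorsoventral positions, and the ventral neighbours give the other side of this comparison: against them the summed level of this list was 1.34 (1.17 to 1.53) at 16 hpf and 0.558 (0.436 to 0.705) at 24 hpf. *phox2bb*, a gene of branchiomotor neurons and their progenitors, was at 118 and 444 CPM in low-*epcam* members and 386 and 1254 CPM in ventral neighbours. At 24 hpf its UMIs came from 4 low-*epcam* members with 7 to 25 UMIs each.

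Of early progenitor genes other than *sox3*, *sox2* and *sox19a* were within 2-fold of the comparison cells at 16 hpf. The 30 listed progenitor genes summed to 13518 CPM in members and 14105 CPM in comparison cells there. Not all of them were near level, since the 10 genes with the lowest ratios at 16 hpf included some of this list. *sox2* was 1.12 (0.776 to 1.58) and 0.904 (0.525 to 1.45) times the comparison level and *sox19a* 0.818 (0.694 to 0.959) and 0.544 (0.358 to 0.793). The Notch target *her4.1* was at 4179 against 2883 CPM at 16 hpf (1.45, 1.38 to 1.52) and 1273 against 1268 CPM at 24 hpf (1.00, 0.874 to 1.15), whereas the ligand *dla* was at 109 (0.314, 0.225 to 0.426) and 199 CPM (0.224, 0.155 to 0.313). Of 38 Notch pathway and *her* genes, 4 of 25 were higher and 4 lower at 16 hpf and 4 of 26 were higher and 8 lower at 24 hpf. Over all genes 16% were higher and 7.22% lower at 16 hpf, and 24.1% and 19.3% at 24 hpf. The counts of higher genes on this list were thus near or below those of all genes. The repressors *hey2* (2.78 and 4.87) and *her8.2* (2.03 and 6.69) and the receptor *notch2* (10.3 and 5.10) were higher at both stages. *her3*, a repressor of the Hairy family, had 1 UMI at 16 hpf against 85.6 CPM in comparison cells (0.0309, 0.000783 to 0.173).

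Neurogenic genes were lower than in the whole comparison set. None of 8 counted genes of 35 was higher and 5 were lower at 16 hpf, and 18 of 20 were lower at 24 hpf, where the 2 higher were the growth cone gene *gap43* and the antiproliferative gene *btg2*. The shares of lower genes among all genes were 7.22% and 19.3%. The comparison cells included differentiating cells, since 13.9% of them at 16 hpf and 39.9% at 24 hpf held at least 2 UMIs of *elavl3* and *elavl4*. The summed ratio of neurogenesis genes over all members was 0.584 at 16 hpf and 0.293 at 24 hpf, and without those comparison cells it was 1.09 and 0.755. The 16 hpf direction thus depended on the choice of comparison cells. Since *elavl3* and *elavl4* are on the list and members were not trimmed by them, leaving out such cells raises the ratio in itself. It cannot decide whether members differ from undifferentiated cells. The proneural gene *neurog1* gave 3 UMIs at 16 hpf (0.0593, 0.0122 to 0.173) and 0 at 24 hpf. *elavl3*, an RNA-binding protein gene of neurons, was at 29.1 CPM (0.265, 0.132 to 0.474) and 99.3 CPM (0.270, 0.157 to 0.432), which is 0.0981 (0.0484 to 0.178) and 0.174 (0.101 to 0.282) times the level of ventral neighbours. *id2a*, which encodes an inhibitor of proneural proteins, was 1.73 (1.479 to 2.02) and 5.96 (5.18 to 6.82) times the comparison level, with a UMI in all 25 low-*epcam* members at 24 hpf.

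Mitotic genes were near the comparison level at 16 hpf and lower in most low-*epcam* members at 24 hpf. At 16 hpf 0 of 34 mitotic genes were past the fold in either direction, with a summed level of 14204 against 16143 CPM (0.8799, 0.856 to 0.904), while 14 of 35 DNA replication genes were lower (summed ratio 0.548). At 24 hpf 26 of 29 mitotic genes were lower, with 5129 against 13799 CPM (0.372, 0.347 to 0.397), and 26 of 29 replication genes, with 1811 against 5173 CPM (0.350, 0.312 to 0.391). In all 37 members, of whose UMIs 49.97% come from the high-*epcam* cells, 6 of 32 mitotic and 7 of 31 replication genes were lower. Over all genes, 7.22% were lower at 16 hpf. At 24 hpf 19.3% were lower in low-*epcam* members and 9.22% in all 37. Per cell, the summed mitotic level of low-*epcam* members was at its lowest, median and highest 2787, 13664 and 25328 CPM at 16 hpf and 0, 1336 and 18100.0 CPM at 24 hpf, with comparison medians of 16066 and 13956 CPM. The replication level was 0, 212 and 9078 CPM at 24 hpf, with a comparison median of 4942 CPM.

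The low values were not spread evenly over the 25 cells, as a division by *phox2bb*, made after the values were seen, shows. The 4 cells with this gene had mitotic and replication levels 1.03 (0.955 to 1.11) and 1.097 (0.969 to 1.24) times those of comparison cells. Those with 24 and 20 *phox2bb* UMIs are the cells without *spon1b* given above. The pooled replication ratio rested on them, at 9078 and 8265 CPM. The other 2 cells, which held *spon1b*, had 1640 and 937 CPM, below the lower quartile of comparison cells, 1705 CPM. The cell with 937 CPM also had a low mitotic level, 5355 CPM. In the other 21 members the ratios were 0.123 (0.107 to 0.141) and 0.0684 (0.0497 to 0.0918), and the highest of their mitotic levels, 6974 CPM, was below the lower quartile of comparison cells, 8698 CPM. The motile cilium list went the other way, with 12.9 (11.5 to 14.5) in the 21 cells and 5.11 (3.77 to 6.78) in the 4. At 16 hpf the 10 members with *phox2a* or *phox2bb* had ratios of 0.986 (0.934 to 1.04) for mitotic and 0.755 (0.688 to 0.827) for replication genes, and the other 34 low-*epcam* members 0.864 (0.837 to 0.892) and 0.495 (0.464 to 0.527). After thinning to 2000 UMIs, 16 of 25 low-*epcam* members at 24 hpf had at least 2 UMIs of mitotic genes (64.0%, 42.5 to 82.0), against 98.0% of comparison and 99.0% of non-neural cells, and 5 of 25 had at least 2 of replication genes (20.0%, 6.83 to 40.7), against 83.1% of comparison and 82.8% of non-neural cells. Without thinning these shares of members were 96.0% and 44.0%. At 16 hpf the thinned shares were 44 of 44 and 39 of 44 members. Thinned to 5000 UMIs at 24 hpf, all 17 low-*epcam* members deep enough had at least 2 mitotic UMIs, as did 99.8% of comparison cells. Their median was 8 mitotic UMIs against 71. At least 2 replication UMIs were held by 6 of the 17 (35.3%, 14.2 to 61.7) against 93.7%. These low-*epcam* members at 24 hpf also had fewer UMIs per cell, a median of 5688 against 8036, and the part of depth in the result was tested no further than by thinning.

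Single genes followed the lists. *pcna*, the replication clamp, was at 702 against 1536 CPM at 16 hpf (0.457, 0.403 to 0.516) and 461 CPM at 24 hpf (0.392, 0.311 to 0.489). *mki67*, a chromosome surface protein gene of dividing cells, was 0.887 (0.706 to 1.101) times the comparison level at 16 hpf and 0.444 (0.275 to 0.680) at 24 hpf, and the topoisomerase *top2a* 1.26 (0.960 to 1.62) and 0.270 (0.0989 to 0.588). The cyclin-dependent kinase inhibitor *cdkn1bb* was higher at both stages, 2.79-fold (2.12 to 3.61) and 3.39-fold (2.54 to 4.42). At 24 hpf the antiproliferative genes *btg1* (2.71, 2.19 to 3.33) and *btg2* (2.60, 2.12 to 3.17) were higher, while *ccnd1*, a cyclin of the G1 phase, was 0.746 (0.592 to 0.928).

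**Figure D4:**
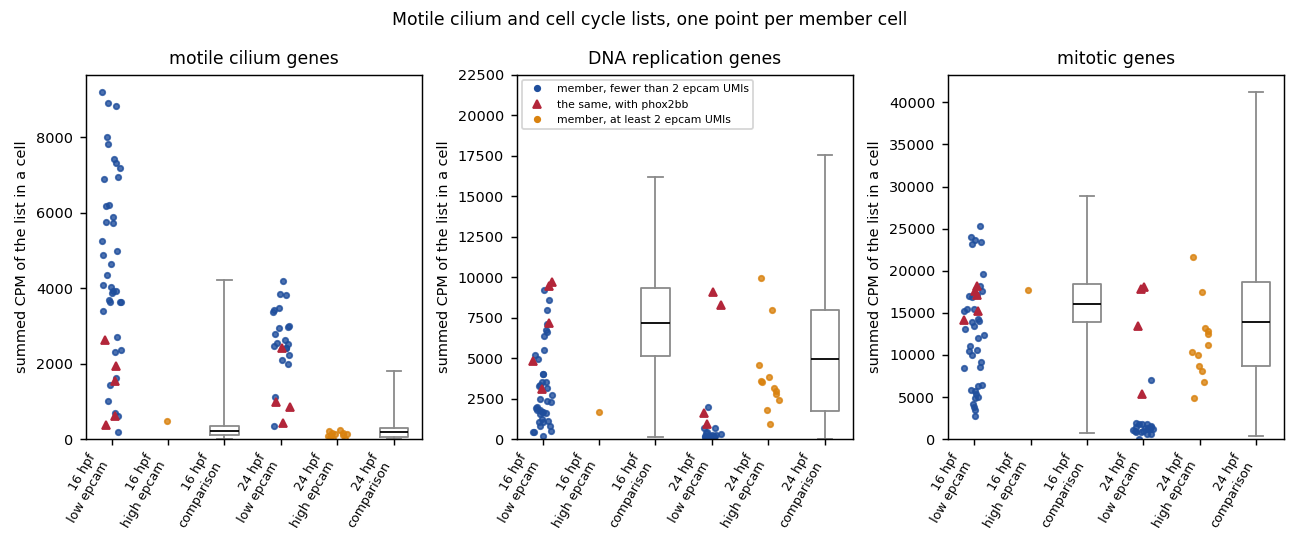
Summed CPM per member cell for motile cilium, mitotic and DNA replication genes at each stage, with blue points for low-*epcam* members, red triangles for those with *phox2bb*, orange points for high-*epcam* members, and a box for the quartiles of comparison cells with whiskers from lowest to highest. At 24 hpf most blue points lie near 0 for mitotic and replication genes. The red triangles lie within the range of comparison cells, some of them below its box for replication genes.

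The members came from several axial levels at 16 hpf. The shares given here were not thinned. Members held fewer UMIs per cell, with a median of 7696.5 against 10285.5 in comparison cells at 16 hpf. What part depth had in these shares was not tested. *eng2a* or *eng2b*, genes of the midbrain-hindbrain boundary region, had a UMI in 9 of 46 members (19.6%, 9.36 to 33.9) against 7.33% of comparison cells. *egr2b* without *mafba*, as in rhombomere 3, was found in 7 members (15.22%) and 16.6% of comparison cells, *hoxb1a* of rhombomere 4 in 4 (8.70%) and 9.12%, and *hoxd4a* of the caudal hindbrain in 6 (13.0%) and 20.2%. *egr2b* together with *mafba*, as in rhombomere 5, was found in 1 member (2.17%, 0.0550 to 11.5) against 18.0% of comparison cells. None of the genes used was detected in 16 members (34.8%) and in 10.9% of comparison cells. At 24 hpf *eng2a*, *eng2b* and *hoxd4a* had no UMI in any of 37 members, where the exact upper limit is 9.49%, and *hoxd4a* had a UMI in 24.5% of comparison cells. *hoxb1a* was found in 5 members (13.5%) and 5.60% of comparison cells, and none of the genes in 20 (54.1%) and 26.0%. Of these 20 cells, 11 were among the 25 low-*epcam* members (44.0%). *nkx2.1* and *nkx2.4b*, genes of the ventral forebrain, gave 0 UMIs in members at both stages. Of 38 segmental and axial genes, 8 of 13 were lower and 2 higher at 16 hpf and 8 of 9 lower in low-*epcam* members at 24 hpf. Among all genes 7.22% were lower and 16% higher at 16 hpf, and 19.3% were lower at 24 hpf. *hoxb3a* (0.116, 0.0377 to 0.272) and *mafba* (0.203, 0.127 to 0.308) were among the lowest at 16 hpf.

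The 24 hpf library was set beside the 16 hpf library for low-*epcam* members, with the same ratio in comparison cells given beside each. Of 4260 genes, 17.3% were at least 2-fold higher at 24 hpf and 24.7% at least 2-fold lower. Secreted genes had a summed level of 3899 CPM at 16 hpf and 14580.2 CPM at 24 hpf, a ratio of 3.74 (3.502 to 3.99) where comparison cells had 1.00. The matrix list was 2.79 (2.65 to 2.94) against 1.04 and the guidance list 2.703 (2.45 to 2.98) against 1.32. *spon1b* was 7.79-fold (6.51 to 9.36) higher at 24 hpf (3.21 in comparison cells), *hapln1a* 11.05-fold (9.47 to 12.9) (1.18), *loxl5b* 14.9-fold (11.1 to 20.3) (0.9005), *slit2* 4.63-fold (3.67 to 5.86) (1.12) and *ntn1b* 4.36-fold (3.49 to 5.48) (1.81). For *ctgfa* the ratio of 7.03 (6.02 to 8.25) was near the 5.50 of comparison cells. The type IX collagens were closer to level, at 1.37 for *col9a1b* and 1.59 for *col9a2*, apart from *col9a3* at 4.104.

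The 10 genes with the highest ratios included *clu*, which went from no UMI to 1046 CPM, at least 127-fold, *cyr61l2* (153, 41.6 to 1277), the selenoprotein *sepp1a* (101, 27.2 to 846), the skeletal muscle actin gene *acta1a* (43.6, 19.5 to 121), *lect1* (at least 23.4-fold), the guanylate cyclase subunit *gucy1a3* (at least 22.0-fold) and the tetraspanin *cd81b* (26.6, 14.0 to 56.8). The *acta1a* UMIs were spread over 19 of 25 cells at 24 hpf. The genes with the lowest ratios included the BMP antagonist *nog1*, from 404 to 5.84 CPM, with a ratio of 0.0145 (0.000364 to 0.0819) against 0.393 in comparison cells, the apelin receptor ligand *apela* (0.0211, 0.000528 to 0.120), the translation repressor *eif4ebp3l*, from 242 CPM to no UMI, and *zbtb16b*, from 104 CPM to no UMI. *mdkb* went from 264 to 23.4 CPM, and the mitotic genes *mad2l1* (0.0829) and *aspm* (0.0803) stood with them.

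Most floor plate regulators differed less between the stages than secreted genes, and cilium genes were lower at 24 hpf. Of 8 counted genes on the regulator list, 0 were at least 2-fold higher at 24 hpf and 1 was lower. The paralogue *foxj1b*, whose UMIs are given above, was lower at 24 hpf. *foxj1a* had a ratio of 1.81 (1.45 to 2.26), *foxa1* 1.28 and *lmx1bb* 0.962. The motile cilium list went from 3869 to 2202 CPM, with a ratio of 0.569 (0.507 to 0.638) against 0.785 in comparison cells, with 26 of 35 counted genes lower and 0 higher. *daw1* had a ratio of 0.431, *enkur* 0.355 and *tppp3* 0.628, and the radial spoke gene *rsph9* went from 25 UMIs to 1. Mitotic genes had a ratio of 0.356 (0.331 to 0.382) against 0.855 in comparison cells, with 29 of 32 lower, and replication genes 0.454 (0.400 to 0.514) against 0.722. Over all members instead of the low-*epcam* ones, *cfl1l* had a stage ratio of 16.9, and without the high-*epcam* cells it was 0.580.

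**Figure D5:**
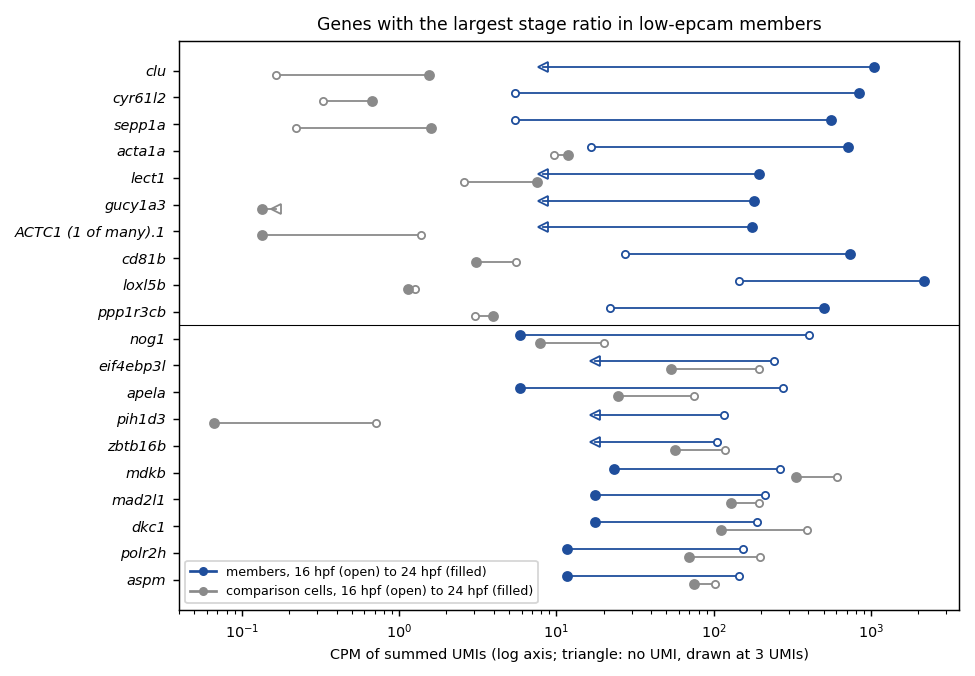
CPM on a log axis of the 10 genes with the highest and the 10 with the lowest ratio between stages in low-*epcam* members. Blue is for these members and grey for comparison cells. Open points are for 16 hpf and filled points for 24 hpf, with a triangle at the level of 3 UMIs where a gene had none. The line joins the stages and is no interval. *clu*, *cyr61l2* and *sepp1a* are higher at 24 hpf, and *nog1*, *apela* and *mdkb* are lower.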

How the data were processed

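The 3 droplet libraries (10x 3′ chemistry, version 2) of the series cover 16, 24 and 44 hpf, and the report rests on the first 2 stages. Per the labels and the study's methods, the authors made the deposited counts, whole UMI counts per gene and cell, with Cell Ranger on GRCz10 and Ensembl 89 (Cell Ranger version not given in the sources used here). The raw matrix of each stage was used with all deposited cells and 27282 genes. The authors' aggregated matrix, which was sub-sampled to equal depth, was not used, and the 44 hpf library was used only for the cells that meet the rule and their levels of a few genes. Counts were summed over the cells of a group and divided by the group's total (Python 3.11.15, numpy 2.4.6, scipy 1.17.1, pandas 2.3.3, figures with matplotlib 3.10.9). Exact Poisson limits were given for levels, exact conditional binomial limits for ratios and Clopper-Pearson limits for shares of cells, all at 95%. A group with 0 UMIs was set at a floor of 3 UMIs over the group, and the ratio was then written as a bound. The libraries held 28566809 and 25733058 UMIs, and the members 377563 and 342189, so that 3 UMIs correspond to 7.95 CPM at 16 hpf, 8.77 CPM at 24 hpf and 17.5 CPM in the 25 low-*epcam* members. The computation was tested on simulated data.

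Shares of cells were compared after thinning each cell to 2000 UMIs by a hypergeometric draw (seed 1), which left out no cell. No doublet caller was run. Genes named in the text were, at each stage, the 15 with the highest lower limit of the ratio (at least 50 CPM in members and a UMI in at least 25% of them), the 10 with the lowest upper limit (at least 50 CPM in comparison cells), between stages 10 in each direction (at least 100 CPM in the higher stage), and any gene of a described list. The 5 genes of the rule and of the comparison set, mitochondrial, ribosomal protein and haemoglobin genes and clone names were left out of this ranking, and some named or listed genes are not reported here. The rule, the gene lists and the markers were chosen with earlier results of these data known. The UMIs of close paralogues were taken as the files give them. No reference genome of the build was used, so no positions or sequences are given.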

Additional observations from a re-analysis of the deposited data

Results flagged for a closer look

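*cyp26c1*, which encodes a retinoic acid degrading enzyme, went in opposite directions in members at the 2 stages, with a ratio to comparison cells of 0.282 (0.1497 to 0.483) at 16 hpf and 3.10 (2.14 to 4.34) at 24 hpf. The difference between the stages was not tested. All 36 of its UMIs at 24 hpf were in 7 of the 12 members with at least 2 *epcam* UMIs, and the 25 low-*epcam* members had none.

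In the 44 hpf library, which no comparison of the report uses, 13 of 3529 cells met the same rule, of which 8 had fewer than 2 *epcam* UMIs and no *ta*, and 5 had at least 2. The 8 low-*epcam* cells held 87 UMIs of *spon1b* (2888 CPM) in 7 cells, 97 of *ntn1b* (3219.6 CPM), 63 of *clu* (2091 CPM) and 11 of *foxj1a* (365 CPM), but only 1 of *col9a2*. The 5 other cells held 152 UMIs of *epcam*, 1 of *spon1b*, and none of *ntn1b*, *loxl5b*, *foxj1a* or *clu*.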

How the results depend on the processing

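Values are counting results of 1 library per stage, so they carry no error between embryos. In this section the 24 hpf values are over all 37 members unless the setting names low-*epcam* members. The setting without *phox2* cells used low-*epcam* members at both stages. No paired analysis was possible because each stage had 1 library. Of 641 alternative values of named genes, 533 moved by less than their counting interval, 104 by more and 4 changed direction. With a CPM minimum of 5, genes higher and lower in members numbered 1635 and 822 at 16 hpf and 1689 and 1056 at 24 hpf. With 50 they were 291 and 123, and 284 and 151, and with a fold of 3 they were 393 and 100, and 369 and 167. In the 2 members at 16 hpf without markers of other cell types they were 1634 and 755, and no such member existed at 24 hpf. This filter dropped members with at least 2 UMIs of a marker list. The lists hold *foxa1*, *col9a3*, *col8a1a* and *krt8*, and 1343 of 1732 comparison cells at 16 hpf also had 2 UMIs of the epidermis list. Few members passing it therefore does not mean that the others are of another cell type. Lower genes at 24 hpf were 582 from means of single cells, 561 with stricter members (at least 4 *shh* and 2 *foxa* UMIs), 584 after thinning to 5000 UMIs, 772 with low-*epcam* members and 1038 without the *phox2* cells, which had 1190 higher.

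The motile cilium ratio at 16 hpf was 15.6 from single-cell means, 17.6 with stricter members and 13.2 with members taken without regard to *foxa*, 4.78 in the 2 members without other markers, 7.48 against ventral neighbours, 15.3 thinned and 16.5 without *phox2* cells. Over all 37 members at 24 hpf it was 5.70. There it was 6.39 without cells beyond 3 median absolute deviations, 8.31 from means, 8.21 with stricter members, 3.02 against ventral neighbours, 10.8 with low-*epcam* members and 12.9 without *phox2* cells. The mitotic ratio at 16 hpf was 0.805 from means, 0.842 without mitochondrial and ribosomal totals, 0.811 with stricter members, 1.17 in the 2 members, 0.820 against ventral neighbours and 0.854 thinned. Over all 37 members at 24 hpf it was 0.623. There it was 0.518 without outlying cells, 0.443 from means, 0.511 with stricter members, 0.563 against ventral neighbours, 0.372 with low-*epcam* members, 0.123 without *phox2* cells, 0.523 thinned, 0.580 against comparison cells with fewer than 2 *elavl* UMIs and 0.598 against comparison cells with low *epcam*. With at least 1 *shh* UMI there were 81 and 56 members, and the rule after thinning to 5000 UMIs found 17 at 24 hpf.

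Against ventral neighbours, directions turned for the ventral list (0.697), the dorsal list (1.32), *her3* (1.15) and *mdka* (1.102) at 16 hpf and for the transcription factor list (0.857) at 24 hpf, which holds the genes that chose these cells. *krt91* (1.40) and *cyt1l* (1.04) turned at 24 hpf against comparison cells with low *epcam*, and the stage ratio of *cfl1l* without high-*epcam* members (0.580). The low-*epcam* and *phox2* settings were chosen after seeing the data. The causes of these changes were not tested. With 25 to 46 cells, a gene under about 3 UMIs per group could not be measured.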

Other observations

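Signalling genes outside the hedgehog pathway differed between members and comparison cells in a few cases. The FGF receptors *fgfr3* and *fgfr4* were past the 2-fold limit in low-*epcam* members at 24 hpf and not at 16 hpf, with 269 CPM of *fgfr3* (6.83, 4.94 to 9.23) and 356 CPM of *fgfr4* (5.03, 3.82 to 6.51), against ratios of 0.901 (0.328 to 1.98) and 1.47 (0.952 to 2.16) at 16 hpf, and the difference between the stages was not tested. Of 24 FGF genes 1 of 9 was higher and 0 lower at 16 hpf, and 4 of 10 were higher and 0 lower at 24 hpf. Over all genes 16% and 24.1% were higher at these stages. The noncanonical ligand *wnt11r* was 2.51-fold (2.05 to 3.05) higher at 16 hpf and 6.86-fold (4.56 to 9.95) at 24 hpf, while the Wnt antagonist *sfrp5* had 1 UMI at 16 hpf (0.0683, 0.00173 to 0.382). *nog1*, which encodes a secreted BMP antagonist, was at 389 CPM at 16 hpf, 19.4-fold (15.9 to 23.5) above comparison cells, and gave 1 UMI in low-*epcam* members at 24 hpf.

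Stress and immediate early genes were among those higher in members. The endoplasmic reticulum chaperone *hspa5* was 2.08 (1.85 to 2.33) and 3.31 (2.93 to 3.72) times the comparison level, *jun* 2.52 (2.25 to 2.81) and 2.67 (2.27 to 3.13), and *fosb* 3.38 (1.86 to 5.70) and 7.94 (4.94 to 12.2). Of 33 glycolysis and stress genes 5 of 18 were higher and 2 lower at 16 hpf and 9 of 21 were higher and 1 lower at 24 hpf. The shares of higher genes among all genes were 16% and 24.1%.

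Ventral neighbours at 16 hpf held 283 UMIs of the insulin gene *ins* and 49 of the somatostatin gene *sst3*, and no member held either.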
